A study of Mus musculus with 43 samples.

Results

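The histone lysine methyltransferases of the screen were the 24 library genes whose symbols fell into the *Kmt2*, *Kmt5*, *Nsd*, *Whsc1*, *Dot1l*, *Ehmt*, *Setd*, *Setdb*, *Setmar*, *Suv39h*, *Suv420h* and *Ash1l* families. They were targeted by 120 of the 10640 sgRNAs, 5 for each gene, in a library of 2078 metabolic genes. Symbols of the families *Ezh*, *Prdm* and *Smyd* were searched for as well and matched no gene of the analysed table, so the methylation of H3K27 is not analysed here. The rule used gene symbols and no measured value, but it was written with earlier results of these data known.

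The screen read how abundant each sgRNA was among OT-I T cells, which are mouse CD8+ T cells with a transgenic T cell receptor for ovalbumin and a Cas9 knock-in. They were transduced with the lentiviral library, selected by the CD90.1 marker of the vector and transferred into Rosa26-Cas9 mice carrying orthotopic KPC_OVA tumours, a mouse pancreatic cancer line that expresses ovalbumin. All recipients carried tumours and were given anti-PD-1 or control IgG from the day of transfer. The T0 group, 3 libraries of transduced cells of that day, had already carried Cas9 and the sgRNAs in culture, so a change against T0 covers only the 7 days in the mouse.

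After these 7 days, OT-I T cells were sorted from primary tumour, lung, liver, peritoneal metastases, spleen, draining lymph nodes and nondraining lymph nodes. Of 43 samples, 41 have values. Each of the 14 in vivo groups held 3 libraries, except liver IgG and peritoneal metastases IgG with 2 and liver anti-PD-1 with 1. The labels call the replicates biological without naming the mice in each, so the p-values measure the spread between libraries. By the paper's methods these organs were all taken from the recipients, so libraries of different organs may share mice and transferred cells. The fits treat the libraries as independent. This concerns above all the mean over groups and the tests between organs. Peritoneal metastases anti-PD-1 replicate 2 carries the spleen as its tissue label but the metastases in its title, and the calls in that group, the mean over groups and the tests between organs and treatments are given with and without it.

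Histone lysine methyltransferases transfer methyl groups from S-adenosylmethionine to lysines of histones H3 and H4. Nearly all carry a SET domain, with *Dot1l* as the exception. Methylated H3K4, H3K36 and H3K79 mark transcribed genes, methylated H3K9 marks silent chromatin, and methylated H4K20 is tied to chromosome compaction and the cell cycle. In T cells, enzymes of this class are known for their part in proliferation after activation and in keeping lineage programmes in place.

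The deposited unit was a signal per sgRNA and library, which the authors had normalised to nontargeting sgRNAs and corrected for batches. The level of a gene is here the mean of log2(signal + 1) over its 5 sgRNAs, minus the mean of the nontargeting sgRNAs in the same library, and a change is the mean level of a group minus that of T0. Depletion or enrichment was called where the p-value from limma, adjusted over the 2078 genes after Benjamini and Hochberg, did not exceed 0.05. Because the signal is no longer a count, sequencing depth per value is unknown. A signal under 5 was rare in T0, at 0.0564% to 0.0658% of all sgRNAs, and most frequent in the 12 libraries from lymph nodes, at 52.5% to 93.6%, where 58 to 114 of the 120 methyltransferase sgRNAs were that low. The lung, with 6 libraries, had 16.1% to 43.3%, and the 20 libraries from the remaining organs had 4.25% to 25.7%. Lymph nodes were therefore fitted apart from the 26 libraries of the other 10 groups. Lung stayed in the latter fit, in which all groups share the same residual spread of a gene. Within lung libraries the nontargeting sgRNAs had a standard deviation of 2.62 to 3.68, against 1.43 to 3.11 in the 20 libraries from the remaining organs. The SE behind calls in lung may therefore be too small. Every comparison with T0 shares the same 3 T0 libraries.

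The sgRNAs against 4 of the 24 methyltransferases were depleted in the mean of the 10 groups outside the lymph nodes, although not each of them in every group. *Kmt2a* and *Setd1a*, which methylate H3K4, *Kmt5a*, which monomethylates H4K20, and *Dot1l*, the H3K79 methyltransferase, changed by −2.70 to −2.32 on the log2 scale in that mean. The limma adjusted p-values with Benjamini-Hochberg adjustment were 3.58e-05 for *Kmt2a* (−2.70, SE 0.491), 0.000134 for *Kmt5a* (−2.50, SE 0.498), 0.023 for *Setd1a* (−2.42, SE 0.775) and 0.000661 for *Dot1l* (−2.32, SE 0.521). Without the metastasis library labelled as spleen the 4 changes were −2.68, −2.57, −2.42 and −2.36, and the same 4 passed (limma adjusted p of 0.0286 for *Setd1a*). The other 20 were not called and ranged from −0.89 for *Setdb1* to 0.90 for *Kmt2b*. Among all 2078 genes, 16.1% were depleted in the same comparison and 0.192% enriched, so the share of 4 of 24 was close to that of the library. The median change was −0.16 over the 24 genes and −0.14 over all genes. Less division, less survival and less entry into an organ cannot be told apart in these abundances.

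Other choices of sgRNAs ended some of these calls while the changes stayed between −2.97 and −1.89. With the median of the 5 sgRNAs, centred on the nontargeting median, the changes were −2.97 for *Kmt2a*, −2.76 for *Kmt5a*, −2.56 for *Setd1a* and −2.39 for *Dot1l*, with limma adjusted p-values of 0.0796, 0.0848, 0.334 and 0.122. The 1 gene that passed there was *Setdb1*, with −1.16 (limma adjusted p = 0.0373, library share 11.7%). Leaving out the 10% of sgRNAs lowest over all libraries kept 1 call, that of *Kmt5a* (library share 3.92%), but this filter ranks sgRNAs on the in vivo libraries too and took away depleted sgRNAs of these 4 genes themselves, so its lost calls say nothing about them. With the 10% ranked on T0 alone, an alternative added after seeing the data, *Kmt2a* (−2.81), *Kmt5a* (−2.61) and *Dot1l* (−2.02) passed with limma adjusted p-values of 5.55e-05, 0.000124 and 0.0126. *Setd1a*, which lost 2 of its 5 sgRNAs to that filter, did not (−2.21, limma adjusted p = 0.181), and *Setdb1* did (−1.0, limma adjusted p = 0.0442), so that 4 passed against a library share of 15.5%.

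The H3K4 enzymes were the largest group, with 8 members, and held both the lowest and the highest mean change. *Kmt2a*, also known as *Mll1*, encodes the catalytic subunit of a complex that keeps H3K4 methylated at developmental genes. Its level was 0.09, 0.12 and 0.35 in the T0 libraries. In primary tumour it was −1.73, −2.07 and −1.97 under IgG and −2.48, −2.09 and −2.09 under anti-PD-1. In lung it was −3.60, −1.88 and −1.71 under IgG and −3.25, −2.60 and −2.82 under anti-PD-1. Every one of these 12 libraries lay below T0, and in the tumour they were close to each other. Liver libraries had −3.18 and −2.70 under IgG and −0.80 under anti-PD-1. Those of peritoneal metastases had −3.71 and −2.59 under IgG and −2.98, −2.37 and −0.58 under anti-PD-1. Spleen libraries had −5.63, −3.23 and −2.67 under IgG and −2.38, −3.09 and −3.66 under anti-PD-1. None of the 26 libraries reached the lowest T0 library, and the highest of them were the single liver library under anti-PD-1 and a metastasis library under anti-PD-1.

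*Kmt2a* was depleted in 9 of the 10 groups, from −2.11 in primary tumour IgG (limma, Benjamini-Hochberg adjusted p = 0.0207) to −4.03 in spleen IgG (adjusted p = 1.07e-05), with an SE of 0.653 where a group had 3 libraries. The group not called was liver anti-PD-1, with −0.98 (SE 0.923, adjusted p = 0.868) from 1 library. In peritoneal metastases anti-PD-1 the change of −2.16 became −1.97 without replicate 2, with a limma adjusted p of 0.0821 in place of 0.0161. In primary tumour IgG the limma adjusted p rose to between 0.051 and 0.0806 without any 1 T0 library or without replicate 2 or 3 of the group, and in peritoneal metastases anti-PD-1 it rose to 0.161 without replicate 1 and to 0.0637 without T0 replicate 3. All 5 sgRNAs fell in the mean of the 10 groups, and 4 of them lay below −1.29, the value under which 5% of the nontargeting sgRNAs lay. The sgRNA s_08307 went from a mean signal of 170.5 in T0 to a median of 0.509 in the 26 libraries, and s_08310 from 282.8 to 10.6. The least affected, s_08309, went from 508.7 to 138.8, a change of −1.0 after centring on the nontargeting sgRNAs. The signals of single sgRNAs are printed here and below without that centring. The nontargeting sgRNAs themselves averaged 7.60 to 8.23 on the log2(signal + 1) scale in T0 libraries and 5.60 to 7.89 in those of the 10 groups.

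*Setd1a*, the catalytic subunit of a SET1 complex that trimethylates H3K4 at promoters, had levels of −0.14, −0.44 and −0.04 in T0. In primary tumour the levels were −2.28, −2.43 and −2.65 under IgG and −3.53, −1.31 and −1.89 under anti-PD-1. In lung they were −0.68, −4.84 and −3.96 under IgG and −3.19, 0.54 and −5.68 under anti-PD-1. The lung libraries thus spanned from above T0 to the lowest *Setd1a* level of all, and 0.54 was the single value of 26 not below T0. In liver the levels were −0.54 and −3.59 under IgG and −1.73 under anti-PD-1, and in peritoneal metastases −2.64 and −3.98 under IgG and −3.64, −3.11 and −2.07 under anti-PD-1. In spleen they were −4.36, −4.74 and −2.23 under IgG and −2.86, −1.74 and −0.96 under anti-PD-1. With this wide spread the SE was 1.03 for 3 libraries, and *Setd1a* was depleted in 2 groups, lung IgG (−2.95, limma adjusted p = 0.0419) and spleen IgG (−3.57, limma adjusted p = 0.0121). In the other 8 groups its change ran from −1.53 to −3.11. The lung IgG call was lost without any of the 6 libraries but replicate 1 of lung IgG, with limma adjusted p-values up to 0.23, and the spleen IgG call without replicate 1 (0.0663) or 2 (0.0867). The mean over the 10 groups kept its size of −2.34 to −2.54 but lost its call when a T0 library was left out, with limma adjusted p-values of 0.0709 to 0.118. All 5 sgRNAs of *Setd1a* lay below the value that held 5% of the nontargeting sgRNAs, and s_09020 had a mean signal of 148.6 in T0 against a median of 0.333 in the 26 libraries.

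The paralogues of these genes were not called, and the differences between paralogues were not tested. *Kmt2b*, the paralogue of *Kmt2a* that acts at many CpG-rich promoters, had the highest mean change of the class. Its T0 levels were 0.37, 0.16 and 0.13. Its levels were 0.10, −0.13 and 0.91 in primary tumour IgG, 0.39, 1.77 and 0.55 in primary tumour anti-PD-1, 2.94, 0.33 and 1.24 in lung IgG and 0.97, 2.87 and 0.51 in lung anti-PD-1. In lung all but the value of 0.33 lay above T0. In liver they were 1.0 and 1.43 under IgG and 1.85 under anti-PD-1, and in peritoneal metastases −0.55 and 1.57 under IgG and −0.35, 1.07 and 0.69 under anti-PD-1. Spleen libraries had 1.91, 0.68 and 0.76 under IgG and 1.27, 3.67 and 0.70 under anti-PD-1. Thus 21 of the 26 libraries lay above all T0 libraries, in spleen each of the 6. A share of at least 21 libraries was reached by 1.73% of all genes and by 2 of the 24, *Kmt2b* and *Suv39h1*. The mean change of *Kmt2b* was 0.90 (SE 0.55), which placed 11th from the top among 2078 genes without passing (limma adjusted p = 0.522), and it was −0.10 on the values as deposited, without centring on the nontargeting sgRNAs. Of its 5 sgRNAs, s_06616 carried most of the rise, from a mean signal of 297.8 in T0 to a median of 564.8. After centring its change was 2.26, and none of the 26 libraries lay below T0 for it.

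*Setd1b*, the paralogue of *Setd1a* in a second SET1 complex, had a mean change of 0.26 (SE 0.497), against −2.42 for *Setd1a*. *Kmt2c* and *Kmt2d*, which monomethylate H3K4 at enhancers, had mean changes of 0.65 (SE 0.556) and −0.55 (SE 0.446). *Kmt2d* was called in peritoneal metastases IgG alone, where both libraries were low. Its levels were 0.00075, −0.16 and 0.51 in T0, −2.10 and −2.83 in peritoneal metastases IgG and −0.47, −0.78 and −0.10 in peritoneal metastases anti-PD-1. The change in the IgG group was −2.58 (SE 0.664, limma adjusted p = 0.00436), with 4 of 5 sgRNAs below 0, and in the other 9 groups *Kmt2d* ranged from −0.60 to 0.38. Without replicate 3 of that group the change was −2.22 with a limma adjusted p of 0.0994. *Kmt2e*, a relative without a firmly established methyltransferase activity, and *Setd7*, which monomethylates H3K4 and other proteins, had mean changes of −0.25 and 0.38 and were called in no group.

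*Dot1l*, the only enzyme of the set for H3K79, had levels of −0.21, −0.22 and −0.0019 in T0. In primary tumour the levels were −3.13, −3.02 and −1.35 under IgG and −2.48, −2.68 and −3.47 under anti-PD-1, and in lung −3.21, −3.31 and −2.03 under IgG and −2.49, −0.49 and −1.71 under anti-PD-1. In liver they were −2.89 and −0.32 under IgG and −2.91 under anti-PD-1. All of these lay below T0, although the lung library with −0.49 and the liver library with −0.32 lay close to it. In peritoneal metastases *Dot1l* stood at −3.80 and −1.42 under IgG and at −4.49, −2.62 and −3.24 under anti-PD-1. In spleen it stood at −3.06, −2.50 and −1.96 under IgG and at −2.49, −1.28 and −1.55 under anti-PD-1. It was thus below T0 in each of the 26 libraries, lowest in the metastases.

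*Dot1l* was depleted in 6 groups, namely both groups of primary tumour and of peritoneal metastases, lung IgG and spleen IgG. The changes there ran from −2.36 in primary tumour IgG (SE 0.694, limma adjusted p = 0.0136) to −3.30 in peritoneal metastases anti-PD-1 (SE 0.694, limma adjusted p = 0.000365). Without replicate 2 the latter was −3.72 with a limma adjusted p of 0.000394. In peritoneal metastases IgG the change of −2.46 shrank to −1.27 without replicate 2 of that group (limma adjusted p = 0.755 in place of 0.025) and lost its call without any 1 T0 library (0.0547 to 0.0764). The calls in primary tumour IgG and spleen IgG were lost without T0 replicate 3 (0.0541 and 0.0547) or replicate 1 of the group (0.0993 and 0.0856), the former also without replicate 2 (0.0853). The 4 groups that were not called had −1.42 to −2.76. The sgRNA s_08136 fell from a mean signal of 124.8 in T0 to a median of 0.545 and was under 5 in 17 of the 26 libraries. The signal of s_08137 went from 452.4 to 20.3. That of s_08140 changed least, from 239 to 140.8, which was a change of −0.30 after centring.

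*Kmt5a*, also called *Setd8*, is the monomethyltransferase of H4K20 and acts during DNA replication and mitosis. Its T0 levels were 0.24, 0.046 and 0.75. In primary tumour the levels were −2.42, −2.10 and −2.08 under IgG and −1.97, −1.08 and −2.39 under anti-PD-1, and in lung −3.36, −3.43 and −1.48 under IgG and −2.98, −2.33 and −4.38 under anti-PD-1. In liver they were −1.23 and −2.87 under IgG and −1.61 under anti-PD-1. These libraries were all below T0, with the lowest in lung. In peritoneal metastases *Kmt5a* stood at −1.92 and −0.74 under IgG and at −1.92, −0.25 and −2.66 under anti-PD-1. In spleen it stood at −1.99, −2.94 and −2.35 under IgG and at −2.77, −3.34 and −1.64 under anti-PD-1. The library nearest to T0, with −0.25, was the metastasis library whose tissue label names the spleen, and it still lay below the lowest T0 library.

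*Kmt5a* was depleted in 8 groups, from −1.96 in peritoneal metastases anti-PD-1 (SE 0.662, limma adjusted p = 0.0381) to −3.57 in lung anti-PD-1 (SE 0.662, limma adjusted p = 5.82e-05). Without replicate 2 the former was −2.64 (limma adjusted p = 0.00627), without replicate 3 of the same group it was −1.43 (limma adjusted p = 0.284), and its call was also lost without replicate 1 (0.142) or any T0 library (0.0623 to 0.17). In primary tumour anti-PD-1 the call was lost without replicate 1 (0.0696), replicate 3 (0.123) or T0 replicate 3 (0.104). In liver IgG the change was −2.39 and became −1.58 without replicate 3 (limma adjusted p = 0.483 in place of 0.0219), and T0 replicate 3 decided this call too (0.0969). It was not called in peritoneal metastases IgG (−1.67) and liver anti-PD-1 (−1.95). All 5 sgRNAs lay below the value that held 5% of the nontargeting sgRNAs, from s_05637 (mean signal 297.2 in T0, median 5.63 in the 26 libraries) to s_05638 (406.2 and 85.4). *Suv420h1* and *Suv420h2*, today named *Kmt5b* and *Kmt5c*, add further methyl groups to the H4K20 that *Kmt5a* has monomethylated. Their mean changes were −0.13 (SE 0.425) and 0.17 (SE 0.382), and neither was called in any group.

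Of the 6 H3K9 enzymes, *Setdb1* alone was called anywhere, and in 1 group. It trimethylates H3K9 at endogenous retroviruses and other silenced loci. It had the highest T0 level of the class, with 0.70, 0.70 and 0.88, at the 95th percentile of all genes. Under IgG its levels were −0.36, 0.12 and 0.52 in primary tumour, 0.65, −0.10 and 0.49 in lung, −0.27 and −0.055 in liver, 0.25 and 0.62 in peritoneal metastases and 0.085, 0.66 and −0.29 in spleen. Under anti-PD-1 they were −0.12, −0.36 and −0.42 in primary tumour, −0.69, 0.017 and −0.85 in lung, −0.47 in liver, −0.45, −0.77 and −0.80 in peritoneal metastases and −0.18, 0.18 and −0.67 in spleen. *Setdb1* was below all T0 libraries in 26 of 26, as were *Kmt2a*, *Kmt5a* and *Dot1l* among the 24 and 14% of all genes. Its changes were small, from −0.33 in peritoneal metastases IgG to −1.43 in peritoneal metastases anti-PD-1 (SE 0.475, limma adjusted p = 0.0324), the group in which it was called. Leaving out any 1 library of that group or of T0 ended this call, with limma adjusted p-values of 0.0508 to 0.123, and 0.0936 without replicate 2. In the mean of the 10 groups it was −0.89 (SE 0.357, limma adjusted p = 0.105).

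The other H3K9 enzymes lay near or above the library median. *Suv39h1*, which trimethylates H3K9 in constitutive heterochromatin, had levels of 0.38, 0.27 and 0.27 in T0. In primary tumour its levels were 0.10, 1.68 and 0.64 under IgG and 0.86, 1.19 and 1.0 under anti-PD-1, and in lung 0.34, 2.02 and 1.02 under IgG and 2.12, 1.97 and −0.11 under anti-PD-1. In liver they were 1.5 and 1.18 under IgG and −0.27 under anti-PD-1. Most of these lay above T0, with the exception of 1 library each in primary tumour IgG, lung IgG, lung anti-PD-1 and liver anti-PD-1. In peritoneal metastases they were 0.49 and 1.02 under IgG and 1.35, 1.92 and 0.31 under anti-PD-1, and in spleen 0.44, 1.34 and 0.79 under IgG and 1.08, 2.43 and 0.93 under anti-PD-1. The mean change was 0.66 (SE 0.454, limma adjusted p = 0.683), with 4 of 5 sgRNAs above 0, and −0.34 on the values as deposited. Its paralogue *Suv39h2* had −0.16 (SE 0.555). *Ehmt1* and *Ehmt2*, which form a heterodimer that mono- and dimethylates H3K9, had mean changes of 0.47 (SE 0.42) and 0.46 (SE 0.384). For each, 20 of 26 libraries lay above T0, a count whose share among all genes was not taken. *Setdb2*, assigned to H3K9 as well, had −0.16 (SE 0.548).

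Of the 6 H3K36 enzymes, 1 was called, *Whsc1l1* (today *Nsd3*) in lung IgG. Its levels were −0.36, 0.041 and −0.18 in T0, −0.70, −4.47 and −2.42 in lung IgG and 0.69, −1.15 and −0.98 in lung anti-PD-1. Each of the lung IgG libraries lay below T0, with a wide spread. The change of −2.37 in lung IgG (SE 0.701, limma adjusted p = 0.0134) fell to −1.40 without replicate 2 (limma adjusted p = 0.187). Its call was lost without T0 replicate 2 as well (0.0542), and in the other 9 groups the changes ran from −1.19 to 0.53. None of its 5 sgRNAs lay below the 5% bound of the nontargeting sgRNAs of lung IgG, which stood at −3.33 in that group. *Whsc1* (today *Nsd2*), like *Whsc1l1* a dimethyltransferase of the NSD family, had a mean change of −0.03 (SE 0.467) and was called nowhere.

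*Nsd1*, the third dimethyltransferase of the family, had the second highest mean change of the class. Its levels were 0.14, 0.43 and −0.17 in T0. In primary tumour they were 0.50, 1.22 and 0.41 under IgG and 0.93, 0.91 and 0.82 under anti-PD-1, and in lung 2.03, 1.0 and 1.28 under IgG and 2.19, −2.29 and 2.35 under anti-PD-1. The lung library with −2.29 stood apart from the others of *Nsd1*. In liver the levels were 0.49 and 0.18 under IgG and 1.60 under anti-PD-1, and in peritoneal metastases 0.88 and 1.08 under IgG and 1.22, −0.21 and 0.52 under anti-PD-1. In spleen they were 1.18, 1.76 and 1.07 under IgG and 0.66, −0.31 and 0.20 under anti-PD-1. The mean change was 0.74 (SE 0.541, limma adjusted p = 0.749), and on the values as deposited it was −0.26. The sgRNAs were divided, with s_02397 rising from a mean signal of 423.5 in T0 to a median of 863.5, s_02399 from 471.7 to 579.5, and s_02398 falling from 215.3 to 77.5. *Setd2*, which trimethylates H3K36, had −0.74 (SE 0.509, limma adjusted p = 0.665) with 21 of 26 libraries below T0. The share of all genes with such a count was not taken. *Ash1l*, a dimethyltransferase, and *Setmar*, a SET-domain protein linked to H3K36 and DNA repair, had −0.34 and −0.32 and were not called.

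Counted by organ, the number of depleted methyltransferases was close to the share of the library in most groups. In primary tumour 3 of 24 were depleted under IgG (library share 14.3%) and 3 under anti-PD-1 (14.4%), each time *Kmt2a*, *Kmt5a* and *Dot1l*. In lung the count was 5 under IgG (16.2%), made up of *Kmt2a*, *Kmt5a*, *Dot1l*, *Setd1a* and *Whsc1l1*, and 2 under anti-PD-1 (17.2%), *Kmt2a* and *Kmt5a*. In liver *Kmt2a* and *Kmt5a* were depleted under IgG (2, library share 13.1%), and none was under anti-PD-1 (0, library share 9.58%). There 2 had an unadjusted limma p under 0.05 (library share at that cut not given). Peritoneal metastases had 3 under IgG (13.7%), *Kmt2a*, *Dot1l* and *Kmt2d*, and 4 under anti-PD-1 (15.3%), *Kmt2a*, *Kmt5a*, *Dot1l* and *Setdb1*. Without replicate 2, whose tissue label names the spleen, the latter were 2, *Kmt5a* and *Dot1l*. Spleen had 4 under IgG (13.6%), *Kmt2a*, *Kmt5a*, *Dot1l* and *Setd1a*, and 2 under anti-PD-1 (14%), *Kmt2a* and *Kmt5a*. With 1 library left out, the counts were 1 to 2 in primary tumour IgG (1 without its replicate 2 or T0 replicate 3) and 1 to 2 in peritoneal metastases anti-PD-1, whichever of its libraries or of T0 was missing. They were 3 in lung IgG without T0 replicate 2 and 4 in lung anti-PD-1 without its replicate 2 (library share 16%). In liver IgG the count was 1 without its replicate 3 or T0 replicate 3, and in spleen IgG 2 without its replicate 1. For the other counts with a library left out the library shares are not given.

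None of the 24 was enriched in any of the 10 groups (0 each). The library shares of enriched genes were 0% in primary tumour under IgG and 0.144% under anti-PD-1, then 1.68% in lung IgG, 0.962% in lung anti-PD-1, 0.192% in liver IgG, 0.289% in liver anti-PD-1, 0.0481% in peritoneal metastases IgG, 0.144% in peritoneal metastases anti-PD-1, 0.289% in spleen IgG and 0.433% in spleen anti-PD-1. Without replicate 3 of lung anti-PD-1 the count there was 3 (library share 0.818%), and without its replicate 2 it was 2 (library share 1.3%). At an unadjusted limma p under 0.05, 4 were higher than T0 in lung anti-PD-1 (library share 4.28%), *Ehmt1* (1.23), *Ehmt2* (1.38), *Setd1b* (1.40) and *Suv420h1* (1.30). In spleen anti-PD-1 *Kmt2b* (1.66) was (library share at that cut not given).

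The comparison between organs asked whether the loss of a methyltransferase differed among primary tumour, lung, liver, peritoneal metastases and spleen. None of the 24 passed the moderated F-test of limma (9 of 2078 genes did, 0.433%). An unadjusted p under 0.05 was found for 4. The library share at that cut is not given, so this is not read as an excess. None passed without the metastasis library labelled as spleen. *Setd1b* came first, with mean changes of −0.54 in primary tumour, 0.77 in lung, 0.76 in liver, −0.50 in peritoneal metastases and 0.81 in spleen (limma, adjusted p = 0.342). *Kmt2d* came next, with −1.58 in peritoneal metastases against −0.52 to −0.07 in the other organs (limma, adjusted p = 0.509). *Kmt2a* was lowest in spleen, with −3.63, and highest in liver, with −2.05 (limma, adjusted p = 0.628). That liver value averages −3.13 under IgG and −0.98 from the single library under anti-PD-1. In all liver values here this single library weighs as much as the 2 IgG libraries together. *Kmt5a* was lowest in lung, with −3.34, and highest in peritoneal metastases, with −1.82 (limma, adjusted p = 0.632). *Dot1l* ran from −2.0 in spleen to −2.88 in peritoneal metastases (limma, adjusted p = 0.928), and *Setdb1* had the narrow range of −0.80 to −1.08 (limma, adjusted p = 0.999). On the values as deposited, 6 of the 24 passed this test (library share 14.4%), and with centring on the nontargeting median 2 did (library share 3.71%). The organ-by-treatment term, added after the values were seen, called none of the 24 and 0% of all genes. At an unadjusted limma p under 0.05 it had 1 methyltransferase (library share at that cut not given).

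Whether PD-1 blockade changed these effects was tested as anti-PD-1 minus IgG, averaged over the 5 organs. None of the 24 genes passed the threshold in limma (0.866% of all genes were higher and 0.481% lower under anti-PD-1). At an unadjusted p under 0.05, 3 were higher and 1 lower (library shares at that cut not given). None passed without the metastasis library labelled as spleen. The 4 depleted genes had differences of 0.67 for *Kmt2a* (SE 0.333), 0.65 for *Setd1a* (SE 0.526), −0.10 for *Dot1l* (SE 0.354) and −0.02 for *Kmt5a* (SE 0.338). The 2 lowest p-values belonged to genes outside the naming rule, *Setd1b* and *Suv420h1*, which are named here after their values were seen.

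*Setd1b* was higher under anti-PD-1 by 1.26 (SE 0.337, limma, adjusted p = 0.0519), ranked 9th from the top among 2078 genes. Under IgG its levels were −0.63, −0.99 and −1.79 in primary tumour, 0.19, 0.40 and −0.58 in lung, 1.11 and −1.60 in liver, −1.54 and −1.57 in peritoneal metastases and 0.64, −0.85 and 1.31 in spleen. Under anti-PD-1 they were −0.83, 0.034 and 0.063 in primary tumour, 0.88, 1.95 and 0.91 in lung, 1.47 in liver, −0.23, 0.77 and 0.25 in peritoneal metastases and 0.44, −0.049 and 2.49 in spleen. The treatments overlapped in primary tumour and in spleen and did not in lung and in peritoneal metastases. In liver the single anti-PD-1 library lay above both of IgG. How many of all genes lack overlap in these organs was not counted. Of the 5 sgRNAs, s_08127, s_08128 and s_08130 were higher by 1.79, 2.55 and 1.68, s_08129 by 0.86, and s_08126 differed by −0.60. Leaving out 1 library at a time gave limma adjusted p-values of 0.0155 to 0.175, with a difference of 1.20 and an adjusted p of 0.0776 without the metastasis library labelled as spleen.

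Within single organs *Suv420h1* passed in lung (1 of 24 higher against a library share of 1.2%, and 0 lower against 2.36%). No gene passed in the other 4 organs, which share the fitted spread with lung. *Suv420h1* had lung levels of −1.42, 0.18 and −0.19 under IgG and 2.32, 0.40 and 1.66 under anti-PD-1, and the groups did not overlap. How many of all genes do not overlap in lung was not counted. The difference was 1.94 (SE 0.565, limma, adjusted p = 0.0475). Leaving out replicate 1 of lung IgG gave 1.46 (limma adjusted p = 0.154). Leaving out replicate 1 or 3 of lung anti-PD-1 gave 1.51 (limma adjusted p = 0.14) or 1.84 (limma adjusted p = 0.0792). The call was also lost without any T0 library (0.063 to 0.0637) and without most libraries of other organs, and it passed under 3 of 10 alternative settings, with adjusted p-values up to 0.393. Not passing, but with an unadjusted limma p under 0.05, were *Whsc1l1* (2.05, adjusted p = 0.092) and *Setd2* (−1.83, adjusted p = 0.114) in lung, and *Kmt2a* in liver (2.14, adjusted p = 0.976). In peritoneal metastases these were *Kmt2d* (2.01), *Setd1b* (1.82) and *Setdb1* (−1.11), with limma adjusted p-values of 0.709 to 0.918. *Setdb1* was the one gene with a lower level under anti-PD-1 at an unadjusted p under 0.05, by −0.61 in the mean of the 5 organs (SE 0.242, limma, adjusted p = 0.211).

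In lymph nodes no methyltransferase was called against T0 by limma, and 0% of the library genes were, in each of the 4 groups. In the node libraries the nontargeting sgRNAs themselves averaged 1.56 to 3.83 on the log2(signal + 1) scale, against 7.60 to 8.23 in T0, which leaves little room for a gene to lie below them. *Kmt2a* was at −2.19, −2.04 and −3.50 in draining nodes under IgG and at −1.54, −2.09 and −2.11 under anti-PD-1, a change of −2.76 (SE 0.965, limma adjusted p = 0.272) and of −2.10 (limma adjusted p = 0.393). In nondraining nodes it was at −1.65, −1.52 and 0.36 under IgG and at −0.69, −1.35 and −3.83 under anti-PD-1. *Nsd1* had the highest value of the class in draining nodes, with 5.17, 4.83 and 2.74 in the anti-PD-1 libraries, against −1.76, 2.26 and 1.70 in those of IgG. The treatments did not overlap there, but how many of all genes do so was not counted. The change of *Nsd1* under anti-PD-1 was 4.12 (SE 1.21, limma adjusted p = 0.302), and the difference from IgG was 3.52 (SE 1.21, limma adjusted p = 0.235). At an unadjusted limma p under 0.05 there were 1 methyltransferase in draining nodes IgG, 3 in draining nodes anti-PD-1, 0 in nondraining nodes IgG and 1 in nondraining nodes anti-PD-1. The library shares at that cut are not given.

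Other genes that handle methyl groups gave a scale for these changes. Of 14 library genes for the supply and recycling of S-adenosylmethionine, the methyl donor of every enzyme above, 4 were depleted and 0 enriched in the mean of the 10 groups (library shares 16.1% and 0.192%), and the median of the 14 was −0.11. *Mat2a*, which makes S-adenosylmethionine in T cells, changed by −6.12 (SE 0.485), *Ahcy*, which removes the inhibitory product S-adenosylhomocysteine, by −5.73 (SE 0.484), and *Slc25a26*, the mitochondrial carrier, by −3.91 (SE 0.618), each depleted in 10 of 10 groups. Their limma adjusted p-values with Benjamini-Hochberg adjustment were 3.23e-12, 1.34e-11 and 3.53e-06. The fourth, the methionine synthase *Mtr*, lay outside the naming rule and is named after its value of −1.74 (SE 0.515) was seen. Of the 3 DNA methyltransferases, the maintenance enzyme *Dnmt1* was depleted in 10 of 10 groups, with −4.84 (SE 0.508, limma adjusted p = 1.42e-09), and the other 2 were not called. None of 11 genes of lysine breakdown was depleted or enriched, with changes of −0.38 to 0.27. Lists of arginine methyltransferases, lysine demethylases and subunits of methyltransferase complexes matched no gene of the table and were not analysed here.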

How the data were processed

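The integrated sgRNAs of sorted OT-I T cells were amplified and sequenced. The authors counted reads with MAGeCK-VISPR (MAGeCK in the submitters' processing notes), scaled them by the 250 nontargeting sgRNAs and applied ComBat between organs, and deposited the resulting signal per sgRNA and library. ComBat can move values of low sgRNAs and shrink differences between organs. The genome build is not given in the sources used here, and sgRNA sequences are not analysed here.

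From the signal, log2(signal + 1) was averaged per gene, and the nontargeting mean of the library was subtracted. limma 3.58.1 in R 4.3.3 fitted 1 mean per group in 29 libraries (T0 and 10 groups) and separately in 15 (T0 and 4 lymph node groups), with Benjamini-Hochberg adjustment over 2078 genes and a threshold of 0.05. Of the 24 symbols, 20 matched RefSeq's mouse gene table directly and 4 as older symbols. Samples were grouped by their titles, and 2 samples without values were left out.

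The genes and lists were chosen with earlier results of these data known. Full values are given for genes called in at least 1 of the 10 groups and for the 3 lowest and 3 highest mean changes. The exceptions are *Kmt2d* and *Whsc1l1*, whose library levels are given only for T0 and the organ of their call. Genes outside the class are given where called in at least 5 groups. Alternatives were log2(signal + 10), the median of the sgRNAs (centred on the nontargeting median), centring on the nontargeting median, on the median of all sgRNAs or not at all, a filter on the lowest 10% of sgRNAs, a block for the replicate number, separate fits for each pair of groups, 1 fit of all 41 libraries, and omission of each library in turn. The mean of the 10 groups against T0, the organ-by-treatment term, the median of the sgRNAs centred on the nontargeting mean and a filter on the 10% of sgRNAs lowest in T0 were added after seeing the data.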

Additional observations from a re-analysis of the deposited data

Results flagged for a closer look

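*Setmar* was singled out because its libraries moved in opposite directions in 2 organs under IgG. In liver IgG both libraries lay above all T0 libraries, with a mean change of 0.81, and in peritoneal metastases IgG both lay below them, with −0.64. How many of all genes move in opposite directions in this way was not counted. The difference between these 2 organs was not tested on its own, and over the 5 organs the moderated F-test of limma gave an adjusted p of 0.999. No group held enough libraries to look for a single library far from the others.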

How the results depend on the processing

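Of 28 calls of a methyltransferase in a group, 28 kept their direction and passed the threshold with log2(value + 10), with centring on the nontargeting median, with values as deposited and with the replicate block. With the median of all sgRNAs 22 passed, without the 10% of sgRNAs lowest in T0 22, with the fit of only the groups compared 24, with all 41 libraries in 1 fit 20, with the median of the sgRNAs of a gene 6 (5 when centred on the nontargeting mean) and without the lowest 10% of sgRNAs over all libraries 5. None reversed. The last filter ranks sgRNAs on the in vivo libraries and so removes depleted ones. For the others the cause was not tested. Shares in parentheses are those of all genes called in the same comparison and setting.

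The number of depleted methyltransferases moved as follows. Library shares are not given for the counts of 0, apart from that in the mean. Those counts are therefore not read as a result particular to the class. With the median of the sgRNAs, centred on the nontargeting median, it was 0 in primary tumour IgG and anti-PD-1, 3 in lung IgG (15.1%), 0 in liver IgG, 0 in peritoneal metastases IgG, 2 in peritoneal metastases anti-PD-1 (8.37%), 0 in spleen IgG, 1 in spleen anti-PD-1 (7.56%) and 1 in the mean of the 10 groups (11.7%). Centred on the nontargeting mean, it was 0 in both primary tumour groups, 2 in lung IgG (12.6%), 1 in lung anti-PD-1 (11.3%), 0 in liver IgG and peritoneal metastases IgG, 1 in peritoneal metastases anti-PD-1 (8.61%), 0 in spleen IgG, 1 in spleen anti-PD-1 (7.07%) and 0 in the mean (11%), 1 was enriched in lung IgG (7.8%) and 1 in lung anti-PD-1 (2.17%), and the mean change of *Kmt2d* was 0.11. Without the lowest 10% of sgRNAs over all libraries it was 0 in both primary tumour groups, 1 in lung IgG (3.18%), lung anti-PD-1 (5.61%) and liver IgG (0.844%), 0 in both groups of peritoneal metastases, 1 in spleen IgG (0.447%) and anti-PD-1 (0.596%) and 1 in the mean (3.92%). Without the 10% lowest in T0 it was 4 in lung anti-PD-1 (17.2%), 1 in peritoneal metastases IgG (12.6%) and 2 in spleen IgG (12.7%). With log2(value + 10) it was 4 in lung anti-PD-1 (17.3%) and 5 in peritoneal metastases IgG (15.2%). With the median of all sgRNAs it was 4 in lung anti-PD-1 (19.6%), 1 in liver IgG (11.5%) and 2 in peritoneal metastases anti-PD-1 (14.1%). With the nontargeting median it was 11 in lung IgG (38.2%), 7 in lung anti-PD-1 (27.3%) and 5 in spleen anti-PD-1 (15.6%), and 2 methyltransferases differed between organs (3.71%).

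Values as deposited put the median of all genes at −1.14 in the mean of the 10 groups, against −0.14 in the main setting and −0.55 with the nontargeting median, so the counts there follow a shift of the whole library. They were 17 in lung IgG (73.8%), 11 in lung anti-PD-1 (47.4%), 5 in liver IgG (22.9%), 3 in liver anti-PD-1 (16.5%), 5 in peritoneal metastases IgG (17%), 7 in spleen anti-PD-1 (24.3%), 23 in draining nodes IgG (97.4%) and anti-PD-1 (97%), 24 in nondraining nodes IgG (98.9%) and anti-PD-1 (99.1%) and 9 in the mean (32.3%), and 6 differed between organs (14.4%). Mean changes turned negative for *Setd1b* (−0.74, and −0.15 with the nontargeting median), *Suv39h1* (−0.34), *Nsd1* (−0.26) and *Kmt2b* (−0.10).

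With only the groups compared, 6 were depleted (20.6%) and 1 enriched (0.626%) in primary tumour IgG, 5 (19.8%) and 2 (0.866%) in primary tumour anti-PD-1, 6 (20.2%) and 1 (1.2%) in peritoneal metastases IgG, 3 depleted in lung IgG (14.8%), 3 enriched in liver IgG (1.97%), 1 enriched in spleen IgG (0.577%) and 1 depleted in draining nodes IgG (5.15%). For liver anti-PD-1 this fit takes its spread from the 3 T0 libraries alone, and nothing is read from its 6 depleted (31.2%) and 9 enriched (25.4%). With all 41 libraries, 1 was depleted in liver IgG (11.7%), in peritoneal metastases anti-PD-1 (13.7%) and in draining nodes IgG (2.65%), and 1 was enriched in draining nodes anti-PD-1 (0.866%).

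The median correlation between deviations of same-numbered libraries was −0.0129 over 118 pairs, 39 of them over 0.1. In the node fit it was −0.0602 over 30 pairs. The main fits carry no term for the replicate number. The number still went with library properties. Total signal in T0 was 2882462 in replicate 3, against 4228882 and 4085227 in the others. Outside the nodes, replicate 3 was lowest in every group with more than 1 library. In each node group it had the fewest signals under 5, at 52.5% to 70.9%, against 78.9% to 93.6% otherwise. Whether the numbers mark the independent sequencing runs named in the paper's methods was not tested. With the replicate block 1 was depleted in liver anti-PD-1 (10.5%) and 1 was higher under anti-PD-1 than IgG (0.962%), *Setd1b* (1.29, limma adjusted p = 0.0488), as also 1 was with log2(value + 10) (1.2%). In the mean, the block gave −2.79 for *Kmt2a*, −2.51 for *Kmt5a*, −2.42 for *Setd1a* and −2.42 for *Dot1l*.

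With 1 library left out, depleted methyltransferases numbered 1 to 2 in primary tumour IgG, 2 to 3 in primary tumour anti-PD-1, 3 to 5 in lung IgG, 2 to 4 in lung anti-PD-1, 1 to 2 in liver IgG, 0 in liver anti-PD-1, 2 in peritoneal metastases IgG, 1 to 2 in peritoneal metastases anti-PD-1, 2 to 4 in spleen IgG, 2 to 3 in spleen anti-PD-1, 0 in the node groups and 3 to 4 in the mean. Enriched ones numbered 0 to 3 in lung anti-PD-1 and 0 elsewhere, those that differed by treatment 0 to 1, and those that differed between organs 0. In the mean, the library share of depleted genes with 1 library left out ran from 14.4% to 16.3%. Without 1 of its own libraries, lung anti-PD-1 had library shares of 16% to 18.9% depleted and 0.818% to 1.3% enriched. For the other ranges library shares are not given, and nothing about the class is read from them. The mean change ran from −2.89 to −2.61 for *Kmt2a*, −2.65 to −2.30 for *Kmt5a*, −2.59 to −2.27 for *Setd1a* and −2.45 to −2.19 for *Dot1l*. Signals under 5 limit what the lung and node libraries can show.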
